A study of Mus musculus with 16 samples.

Results

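Transcripts of the urea cycle and of ammonia handling were followed in mouse liver through 9 genes: Nags, Cps1, Otc, Ass1, Asl, Arg1, Glud1, Gls2 and Glul. A probe set, the group of array probes that reads 1 transcript, was taken where the platform annotation gives it exactly 1 of these symbols. That rule found 11 probe sets of 7 genes among 22626, with 3 for Otc, 2 each for Glud1 and Glul, and 1 each for Nags, Cps1, Asl and Arg1. Gls2 had none. The probe set 1416239_at is listed for both Ass1 and Gm5424, so it was kept out of every count, and its values are given under both names.

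The liver turns ammonia into urea in mitochondria and cytosol. Nags makes N-acetylglutamate, which Cps1 needs to build carbamoyl phosphate from ammonia; Otc joins that to ornithine; Ass1 and Asl make arginine from citrulline and aspartate, and Arg1 splits arginine into urea and ornithine. Glud1 releases ammonia from glutamate, Gls2 from glutamine. Hepatocytes near the portal vein carry most of the cycle, while those around the central vein use Glul, glutamine synthetase, to catch the ammonia that escapes it.

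Liver RNA of male FvB/n mice was read on 16 arrays, in 2 experiments of 8. In the drug experiment all 8 arrays carry the high-expressing TTR::Fv2E-PERK transgene, in which the liver-active transthyretin promoter drives PERK, a kinase of translation factor eIF2α, in a form that the small molecule AP20187 pairs and so switches on. Of these, 4 arrays are labelled untreated, which the series' design describes as mock injection, and 4 AP20187-treated. The diet experiment has 2 arrays for each of 4 groups: wildtype or Alb::GC mice, fed low fat (LFD) or high fat (HFD) food. Alb::GC mice make an active piece of GADD34, a phosphatase subunit that reverses eIF2α phosphorylation, from the hepatocyte albumin promoter. Whether animals were pooled is not given in the sources used here, nor are age, drug dose and treatment times. No label ties an array to an animal of its own; p-values therefore measure only the spread between these arrays, and that may be technical.

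Each value is a ratio around 1 that has no absolute level, and the 2 experiments have separate scales, so levels were compared only within a probe set and an experiment. Changes are differences of group means of log2(ratio + 0.05). A change passed the test when its limma p-value, adjusted by Benjamini-Hochberg over all 22626 probe sets, was under 0.05. Array medians lay between 0.94 and 1.02, and replicates correlated at 0.442 to 0.658 over all probe sets. The medians were 0.99, 0.99, 1 and 1.01 in untreated arrays and 0.96, 0.94, 0.98 and 0.95 with AP20187, without overlap. In the diet experiment they were 0.96 to 1.02 on LFD and 0.94 to 0.97 on HFD. The values were fitted as deposited, and calls lost on rescaling are given below. The source field gives both genotypes for LFD wildtype replicate 2 and a single letter for AP20187 replicate 4; their descriptions were followed.

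Promoters are shown for 4 of the genes, since the results below set apart Otc and Glud1, which fell with AP20187, from Nags, which rose, and Glul, which did not pass the test. The sequences come from RefSeq on build GRCm38.p6 and run from 250 bases before to 50 after the start. Capitals mark the matches to 6 motifs searched on both strands: TGATGNAA (the core of the composite site of C/EBP and ATF factors), TTGCNNAA (C/EBP), AAAGTNCA (HNF4), then the CCAAT box, the GC box GGGCGG and the TATA box TATAAA.
Otc, chrX:10252055-10252354, + strand: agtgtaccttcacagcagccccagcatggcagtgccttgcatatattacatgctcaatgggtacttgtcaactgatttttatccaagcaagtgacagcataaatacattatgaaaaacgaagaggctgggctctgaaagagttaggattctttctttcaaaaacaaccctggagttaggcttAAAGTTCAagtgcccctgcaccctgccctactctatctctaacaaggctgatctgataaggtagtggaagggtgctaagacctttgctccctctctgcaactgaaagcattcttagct
Glud1, chr14:34310477-34310776, + strand: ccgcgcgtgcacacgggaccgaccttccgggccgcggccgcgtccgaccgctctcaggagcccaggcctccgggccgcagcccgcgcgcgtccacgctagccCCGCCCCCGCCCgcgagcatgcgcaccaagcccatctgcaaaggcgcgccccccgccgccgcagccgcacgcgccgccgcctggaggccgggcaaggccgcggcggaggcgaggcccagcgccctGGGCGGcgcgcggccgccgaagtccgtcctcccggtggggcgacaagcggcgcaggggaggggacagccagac
Nags, chr11:102145263-102145562, + strand: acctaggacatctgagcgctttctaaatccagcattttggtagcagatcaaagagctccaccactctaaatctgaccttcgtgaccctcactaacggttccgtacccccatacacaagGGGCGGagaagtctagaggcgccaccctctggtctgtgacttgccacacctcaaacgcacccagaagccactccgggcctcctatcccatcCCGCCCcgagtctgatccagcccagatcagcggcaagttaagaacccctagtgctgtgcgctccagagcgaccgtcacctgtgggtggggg
Glul, chr1:153899679-153899978, + strand: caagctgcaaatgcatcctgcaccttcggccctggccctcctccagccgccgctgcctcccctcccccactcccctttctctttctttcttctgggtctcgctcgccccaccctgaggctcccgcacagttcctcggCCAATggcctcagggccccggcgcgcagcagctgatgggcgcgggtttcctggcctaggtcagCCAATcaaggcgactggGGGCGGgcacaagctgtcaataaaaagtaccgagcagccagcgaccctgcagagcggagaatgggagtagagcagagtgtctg

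The Otc window held 1 match, AAAGTTCA, which begins 68 bases before the start; 4.12% of 32851 promoters of this length hold AAAGTNCA. Glud1 had GC boxes beginning 148, 142 and 23 bases before its start, and Nags had them at 132 and 41. Glul had CCAAT at 113 and 50 bases and a GC box at 33. GC boxes are present in 35.7% of promoters and CCAAT in 37.4%. TGATGNAA, TTGCNNAA and TATAAA, found in 3.97%, 10.8% and 13.6% of promoters, had no match in these 4 windows. The matched motifs did not overlap one another. A match is a string of letters and says nothing about binding. Promoters of 5 of the 9 genes were in the table, Ass1 being the fifth.

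With AP20187, transcripts of the cycle did not move as a block. The 2 steadier Otc probe sets fell to 35.5% and 37.8% of their untreated ratio, Glud1 and Cps1 fell by less, and Asl and Nags rose. Arg1 and both probe sets of Glul did not pass the test. Past the test were 8 of 11 probe sets, from 5 genes: 2 were higher and 6 lower. The share among all 22626 was 34.1%, with 13.7% higher and 20.4% lower. The median change was -0.36 for the 11 and -0.13 for all probe sets. The same 8 probe sets had arrays that did not overlap between the groups, against 35% of all probe sets.

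**Figure D1:**
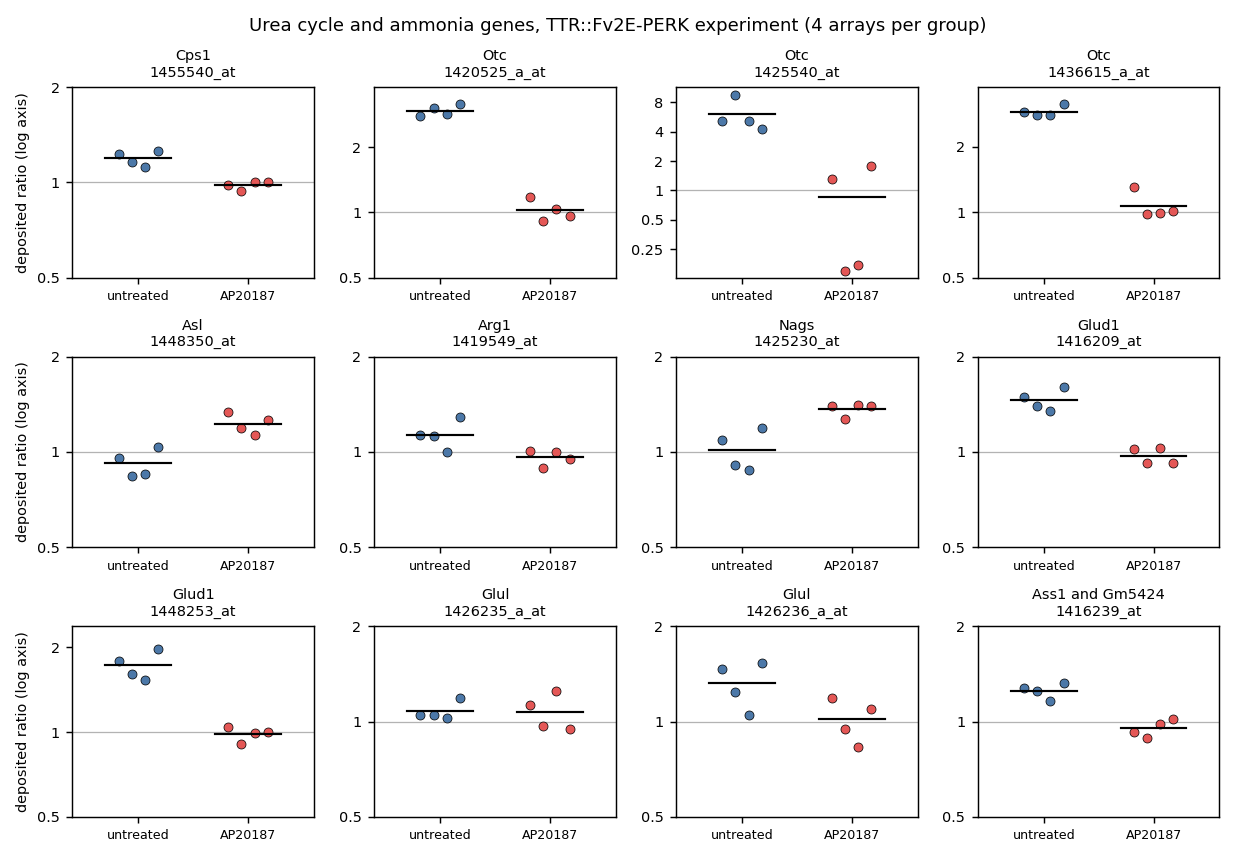
Deposited ratio (log axis) of each probe set in the 4 untreated and 4 AP20187 arrays, 1 panel per probe set, with points for arrays and bars for group means. Otc 1420525_a_at lies between 2.78 and 3.16 in untreated arrays and between 0.91 and 1.18 in AP20187 arrays, while the Glul panels overlap.

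Otc, the enzyme that makes citrulline, changed most. Probe set 1420525_a_at read 2.78, 3.04, 2.85 and 3.16 in the untreated arrays and 1.18, 0.91, 1.04 and 0.96 with AP20187. Every untreated array lay above every treated one. The group means were 2.96 ± 0.174 and 1.02 ± 0.118 (SD, n = 4 each), a log2 change of -1.49 ± 0.12 (SE; limma adjusted p = 0.000106). Probe set 1436615_a_at read 2.89, 2.79, 2.79 and 3.13 against 1.30, 0.98, 0.99 and 1.01, and changed by -1.41 ± 0.12 (limma adjusted p = 0.000157). Its groups did not overlap either, and AP20187 replicate 1 was the highest treated array in both probe sets.

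The other Otc probe set, 1425540_at, was far noisier. It read 5.17, 9.56, 5.12 and 4.26 in untreated arrays and 1.32, 0.15, 0.17 and 1.80 in treated ones. Treated replicates 2 and 3 were near the bottom of the scale and replicates 1 and 4 were not, yet all 4 lay under the untreated arrays. Its change was -3.32 ± 0.77 (limma adjusted p = 0.0114), and its within-group SD of 1.25 stood at percentile 96.2 of all probe sets. The 2 steadier probe sets stood at percentiles 13 and 18.7. The fall of 1425540_at exceeded that of 1420525_a_at by 1.83 on the log2 scale, which did not pass an exact permutation test over the arrays (two-sided p = 0.0857, adjusted p = 0.137 over 8 such tests).

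Cps1, which takes up free ammonia at the first step, fell slightly but evenly. Its ratios were 1.23, 1.16, 1.12 and 1.26 untreated and 0.98, 0.94, 1 and 1 treated, without overlap. The means were 1.19 ± 0.064 and 0.98 ± 0.0283 (SD, n = 4 each), 17% lower with AP20187, at -0.27 ± 0.07 on the log2 scale (limma adjusted p = 0.0242). Few probe sets were as even as this, the within-group SD of 0.0598 being at percentile 0.548. The call was lost with quantile normalization (-0.14, limma adjusted p = 0.186) and with arrays centred on their medians (-0.21, limma adjusted p = 0.0501). It was also lost without untreated replicate 1 (limma adjusted p = 0.0664), untreated replicate 4 (0.0619), AP20187 replicate 1 (0.0569) or AP20187 replicate 2 (0.0716).

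Nags supplies the activator of Cps1 and moved the other way. It read 1.09, 0.91, 0.88 and 1.19 untreated and 1.40, 1.27, 1.41 and 1.40 with AP20187. All treated arrays were above all untreated ones. The means were 1.02 ± 0.148 and 1.37 ± 0.0668 (SD, n = 4 each), a rise of 0.42 ± 0.11 on the log2 scale (limma adjusted p = 0.0189).

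Asl, which cleaves argininosuccinate into arginine and fumarate, also rose. Its ratios were 0.96, 0.84, 0.85 and 1.04 untreated and 1.34, 1.19, 1.13 and 1.26 treated. The groups did not overlap, and the means were 0.922 ± 0.0954 and 1.23 ± 0.0906 (SD, n = 4 each). The change of 0.40 ± 0.10 passed the test (limma adjusted p = 0.016), but not without AP20187 replicate 1 (0.36, limma adjusted p = 0.0513).

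The probe set listed for Ass1 and Gm5424 fell. Ass1 makes argininosuccinate, the substrate of Asl, and Gm5424 is annotated as a transcribed pseudogene of the Ass family, and the probe set cannot tell the transcripts apart here. It read 1.28, 1.25, 1.16 and 1.32 untreated and 0.93, 0.89, 0.98 and 1.02 treated, without overlap. The change was -0.37 ± 0.08 (limma adjusted p = 0.00814), and it lost its call with quantile normalization (-0.24, limma adjusted p = 0.0635).

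Arg1, the enzyme that releases urea, had overlapping groups. The untreated arrays read 1.13, 1.12, 1 and 1.29 and the treated arrays 1.01, 0.89, 1 and 0.95. The difference of -0.22 ± 0.10 did not pass (limma adjusted p = 0.12), and its 95% interval ran from -0.45 to 0.

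Glud1, the glutamate dehydrogenase that frees ammonia in the mitochondrion, fell in both probe sets. Probe set 1448253_at read 1.79, 1.61, 1.53 and 1.98 untreated and 1.04, 0.91, 0.99 and 1 treated, a change of -0.77 ± 0.10 (limma adjusted p = 0.000712). Probe set 1416209_at read 1.49, 1.40, 1.35 and 1.60 against 1.02, 0.92, 1.03 and 0.92, a change of -0.56 ± 0.08 (limma adjusted p = 0.00153). Neither pair of groups overlapped. The fall of the first exceeded that of the second by 0.21, a difference with an exact permutation p of 0.0286, the smallest possible, and an adjusted p of 0.114 over the 8 such tests. An adjusted p under 0.05 would need several of the 8 tests at that smallest value, so it could hardly be reached.

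Glul, the ammonia scavenger of pericentral cells, did not pass in either probe set. Probe set 1426235_a_at read 1.05, 1.05, 1.03 and 1.19 untreated and 1.13, 0.97, 1.25 and 0.95 treated, a difference of -0.01 ± 0.11 (limma adjusted p = 0.947; 95% interval -0.26 to 0.24). Probe set 1426236_a_at read 1.47, 1.24, 1.05 and 1.53 against 1.19, 0.95, 0.83 and 1.10, a difference of -0.36 ± 0.15 (limma adjusted p = 0.109). The 95% interval of 1426236_a_at, which is not adjusted over probe sets, ran from -0.71 to -0.01. Both sets of arrays overlapped between the groups.

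An exact permutation test of each probe set alone, over all 70 ways to split 8 arrays into 4 and 4, gave p = 0.0286 for the 8 that passed in the fit and for the probe set of Ass1 and Gm5424. That is the smallest p this design allows. Arg1 gave an exact p of 0.0857, and the Glul probe sets 0.886 and 0.114.

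**Figure D2:**
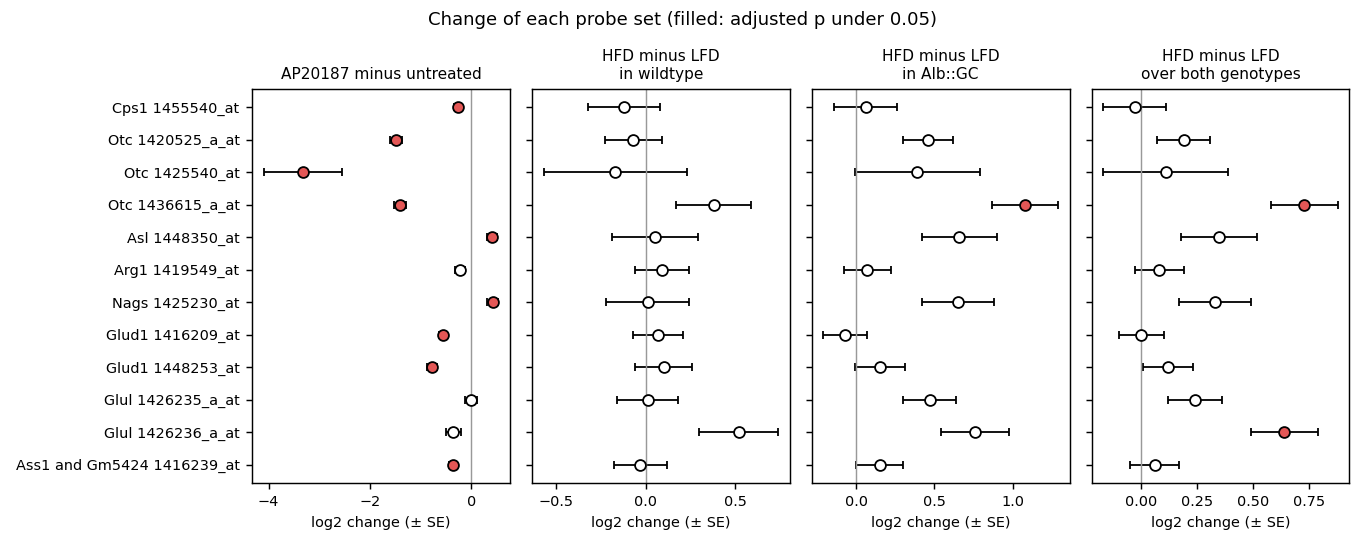
Log2 change with its standard error for each probe set in AP20187 minus untreated and in HFD minus LFD in wildtype, in Alb::GC and over both genotypes. Filled points have a limma adjusted p under 0.05. Otc reaches -3.32 with AP20187, Asl and Nags lie at 0.40 and 0.42, and HFD minus LFD in wildtype has no filled point.

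Cell type markers moved in the same comparison, in which 13.7% of all probe sets rose and 20.4% fell. Of 16 probe sets of hepatocyte markers, 10 fell and 3 rose, the 3 being those of Hnf4a. The summed ratio of the list was 18.3 to 19.6 in untreated arrays and 15.3 to 16.5 in treated ones. Stellate cell and fibroblast markers fell in 9 of 15 probe sets, with sums of 23.2 to 28.8 against 12.9 to 14.2. Macrophage markers fell in 6 of 11 and rose in 1, with sums of 12.3 to 13.2 against 8.73 to 11.2, and endothelial markers fell in 3 of 11, with sums of 12 to 14.5 against 9.67 to 11. Of the 5 probe sets of neutrophil markers 0 passed, and their sums were 5.83 to 6.43 against 3.49 to 4.96. Cholangiocyte markers rose in 1 of 5, and exocrine pancreas markers fell in 1 of 7. Of the 6 probe sets of lymphocyte, 3 of adipocyte and 8 of kidney tubule markers, 0 passed. No marker was at 0 on any array, as ratios around 1 have no zero. The array's RNA integrity control for Actb, its 3' minus 5' log2 value, was -0.18, -0.12, -0.15 and -0.02 in untreated arrays and -0.04, 0.16, 0.16 and 0.16 with AP20187, mostly higher with the drug. For Gapdh it was -0.06, -0.01, -0.05 and -0.06 untreated and -0.11, -0.15, 0.20 and -0.13 treated. The part of cell content and RNA integrity in the member changes was not tested, and in whole liver fewer cells of a type and less RNA per cell cannot be told apart.

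Genes around the cycle were counted in lists by role, as probe sets, of which a gene can have several. The lists were chosen with earlier results of these data known, 11 genes stand in more than 1 list, and counts are of probe sets past the limma threshold, to be read against the 13.7% higher and 20.4% lower of all probe sets. Over all probe sets, quantile normalization gave 3449 higher and 3473 lower, and centring on medians 3465 and 4109, from 3107 and 4617. List counts under those scalings are to be read against these. Differences between lists were not tested.

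Carriers and channels that move substrates of the cycle went both ways: 4 of 24 probe sets rose and 6 fell, with a median of -0.19. Of 15 measured genes, 2 rose, Slc25a29 and Slc25a15, and 5 fell. Quantile normalization gave 5 and 1 probe sets, and centring on medians 5 and 5. Slc25a29, a mitochondrial carrier of basic amino acids, rose by 2.55 ± 0.32, from 0.468 ± 0.27 to 2.75 ± 0.498 (SD, n = 4 each; limma adjusted p = 0.000638), while its other 4 probe sets ranged from 0.11 to 2.13. Slc25a15, the ornithine-citrulline exchanger, rose by 0.49 ± 0.14 (limma adjusted p = 0.0262) in 1 probe set and read 0.08 in the other. Its call was lost without untreated replicate 2 or 3 (limma adjusted p = 0.0602 and 0.0594) or without AP20187 replicate 1, 2 or 4 (0.0665, 0.075 and 0.0703). Aqp8, a water channel that also passes ammonia, fell from 4.8 ± 0.8 to 0.98 ± 0.243 (SD, n = 4 each), a change of -2.25 ± 0.24 (limma adjusted p = 0.000313). Car5a, the mitochondrial carbonic anhydrase that provides bicarbonate for Cps1, fell by 0.60 ± 0.15 on the log2 scale (limma adjusted p = 0.0163), a call that quantile normalization ended (-0.40, limma adjusted p = 0.137).

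Enzymes of arginine, ornithine, proline and polyamines rose in 10 of 25 probe sets and fell in 5, with a median of 0.33. By gene, 6 of 17 measured rose and 5 fell. Quantile normalization gave 10 and 3 probe sets. Odc1, which turns ornithine into putrescine, rose from 0.282 ± 0.0403 to 1.01 ± 0.131 (SD, n = 4 each), a change of 1.66 ± 0.21, and its other 2 probe sets changed by 1.25 and 1.37. Srm, spermidine synthase, rose by 1.25 ± 0.19, and Aldh18a1, which starts proline and ornithine synthesis from glutamate, by 1.64 ± 0.28 in its leading probe set, with the other 4 from 0.24 to 1.33. Gatm, which uses arginine for creatine synthesis, changed by -1.04 ± 0.14.

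The aspartate and fumarate list, which also holds users of aspartate, rose in 3 of 16 probe sets and fell in 6, with a median of -0.07. The rises came from 2 genes, Asns and Got1, and the falls from 3. Quantile normalization gave 4 and 5 probe sets. Asns, asparagine synthetase, which consumes aspartate and glutamine, rose from 0.0525 ± 0.0359 to 0.992 ± 0.152 (SD, n = 4 each). Its change of 3.40 ± 0.34 is understated, since the offset of 0.05 is near its untreated ratio, and its other probe set changed by 1.69. Got1, the cytosolic aspartate transaminase, rose by 0.58 ± 0.13, and its mitochondrial partner Got2 changed by -0.61 ± 0.09 (other probe set -0.58). Mdh1, cytosolic malate dehydrogenase, changed by -0.85 ± 0.09 in its leading probe set, but its others ranged from -0.81 to 1.06.

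The glutamine and glutamate list, which also holds carriers of other amino acids, rose in 14 of 27 probe sets and fell in 2, with a median of 0.75. Slc1a4, a neutral amino acid carrier, rose from 0.16 ± 0.13 to 1.21 ± 0.0387 (SD, n = 4 each), a change of 2.81 ± 0.46. Gpt2, mitochondrial alanine transaminase, rose by 1.75 ± 0.18, with the others at 1.10 and 1.23. Ppat, which takes the amide of glutamine for purines, rose by 1.31 ± 0.10 and 0.74 in its 2 probe sets, and Slc7a2, a carrier of arginine and ornithine, by 1.21 ± 0.23. The 2 that fell were Slc7a8 and Slc38a4, at -0.78 and -0.32.

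The list named nitrogen release holds enzymes of amino acid breakdown, and not all of them set nitrogen free themselves. It fell in 32 of 51 probe sets, from 25 of 39 measured genes, and none rose. The median was -0.48. Quantile normalization gave 23 lower and 1 higher. Amdhd1, of histidine breakdown, fell from 2.42 ± 0.104 to 0.978 ± 0.0685 (SD, n = 4 each), a change of -1.27 ± 0.09. Agxt, which moves the amino group of alanine to glyoxylate, changed by -1.12 ± 0.10. Ivd, of leucine breakdown, changed by -0.98 ± 0.19, and Haao, of tryptophan breakdown, by -0.95 ± 0.11. Of the 16 probe sets of hepatocyte markers, 10 fell alongside and 3 rose, and both lists name Tat.

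Transcription factors, receptors and deacylases that regulate urea cycle genes rose in 14 of 39 probe sets and fell in 2, with a median of 0.52. Cebpb rose by 1.90 ± 0.16, its mean ratios being 0.35 ± 0.0594 and 1.43 ± 0.0236 (SD, n = 4 each). The forkhead factors Foxa2 and Foxa3 rose by 1.10 ± 0.12 and 1.03 ± 0.14, and Nr3c1, the glucocorticoid receptor, by 0.91 ± 0.10. The 2 that fell were probe sets of Gcgr, the glucagon receptor, and Nfyb, a subunit of the CCAAT-binding factor, at -0.73 and -0.34. Hnf4a, a nuclear receptor that maintains hepatocyte genes, rose in 3 probe sets, by 0.52, 0.55 and 0.86.

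Among genes of the liver zones, pericentral genes fell in 9 of 30 probe sets and rose in 4, with a median of -0.29; quantile normalization gave 7 and 5. Lect2 changed by -2.06 ± 0.20, Rgn by -1.07 ± 0.12 and Cyp2c29 by -0.69 ± 0.08, while Ahr rose by 1.23 ± 0.13. Periportal genes fell in 11 of 24 and rose in 4, with a median of -0.38. Aldh1b1 changed by -1.97 ± 0.13 and the cadherin gene Cdh1 by -1.95 ± 0.19, while Hsd17b13 rose by 1.21 ± 0.15. The difference between the zones was not tested.

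**Figure D3:**
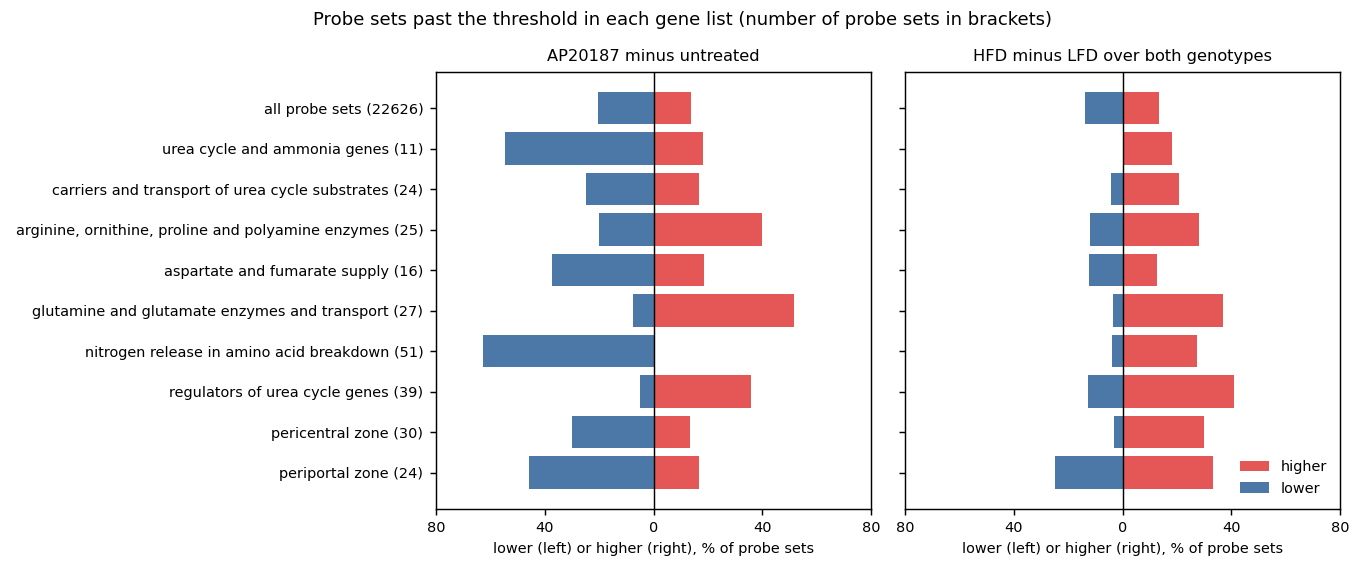
Percent of each list's probe sets that passed the limma threshold higher or lower, with AP20187 and with HFD over both genotypes. With AP20187 the bar of nitrogen release holds 32 of 51 probe sets lower and none higher, and that of glutamine and glutamate 14 of 27 higher and 2 lower.

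Diet moved few of the member probe sets. HFD was compared with LFD in each genotype, 2 arrays against 2 with 1 spread shared by the 4 groups, and over both genotypes, 4 against 4. In wildtype mice 0 of 11 passed in limma, against 14.6% of all probe sets; 0 of the 11 and 7624 of the 22626 had an unadjusted p under 0.05. The smallest adjusted p of the 11 was 0.15, and the median change was 0.05 for the 11 and -0.11 for all. In Alb::GC mice 1 passed, higher, against 6.77% of all probe sets and 4.64% higher. The median in Alb::GC mice was 0.46 for the 11 and -0.02 for all; 6 of the 11 and 6338 of the 22626 had an unadjusted p under 0.05. Over both genotypes 2 of 11 passed, both higher, against 27.5% of all and 13.5% higher, with a median of 0.19 for the 11 and -0.07 for all probe sets. Arrays did not overlap between the diets for 2 of 11 in wildtype mice, against 62.7% of all probe sets, and for 9 of 11 in Alb::GC mice, against 60%.

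**Figure D4:**
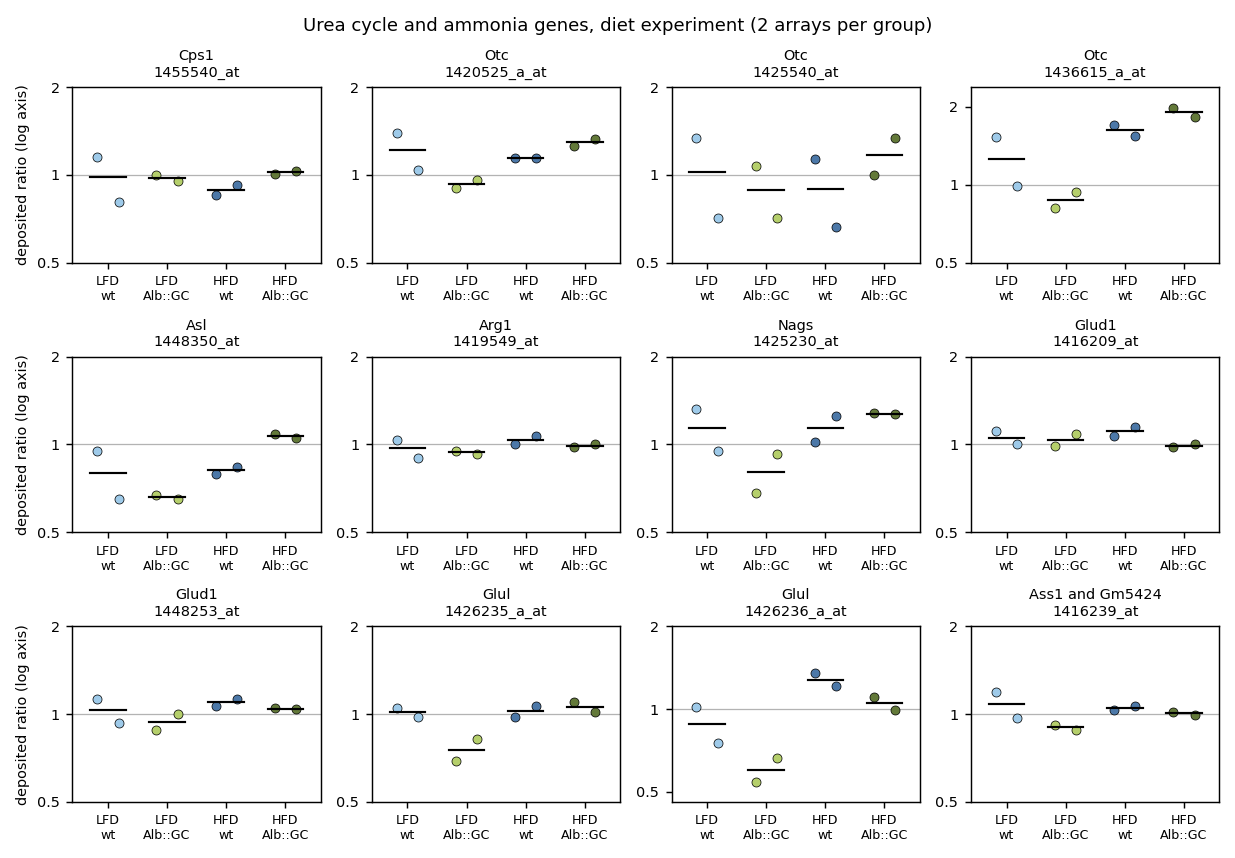
Deposited ratio (log axis) of each probe set in the 8 arrays of the diet experiment, 2 per group, with points for arrays and bars for group means. Otc 1436615_a_at is at 0.81 to 1.52 on LFD and 1.54 to 1.98 on HFD, while Arg1 stays between 0.90 and 1.07 in all 8 arrays.

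The probe set that passed in Alb::GC mice was Otc 1436615_a_at. It read 0.81 and 0.94 on LFD and 1.98 and 1.83 on HFD, a rise of 1.08 ± 0.21 (limma adjusted p = 0.0406). The wildtype arrays read 1.52 and 0.99 on LFD and 1.70 and 1.54 on HFD, a difference of 0.38 ± 0.21 (limma adjusted p = 0.258). Every HFD array was above every LFD array of either genotype, and the rise over both was 0.73 ± 0.15 (limma adjusted p = 0.019). The call in Alb::GC mice was lost with quantile normalization (1.03, limma adjusted p = 0.061), without the variance trend (0.0556), and without any 1 of the 4 Alb::GC arrays (0.0958 to 0.147). Over both genotypes it was lost without LFD Alb::GC replicate 1 (limma adjusted p = 0.0554), HFD wildtype replicate 1 (0.0631) or 2 (0.0518), or HFD Alb::GC replicate 1 (0.0585).

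The other Otc probe sets did not share that call. For probe set 1420525_a_at the LFD arrays read 1.39 and 1.04 (wildtype) and 0.90 and 0.96 (Alb::GC), and the HFD arrays 1.14 and 1.14 (wildtype) and 1.26 and 1.33 (Alb::GC). Its difference over both genotypes was 0.19 ± 0.12 (limma adjusted p = 0.25), and the diets overlapped. Probe set 1425540_at ranged from 0.66 to 1.34 across the 8 arrays, with 0.11 ± 0.28 (limma adjusted p = 0.791). The log2 value of 1436615_a_at minus that of 1420525_a_at was 0.12, -0.07, -0.14 and -0.03 on LFD and 0.56, 0.42, 0.63 and 0.45 on HFD. That gap of 0.54 between the diets had an exact permutation p of 0.0286, the smallest possible, and an adjusted p of 0.114 over 8 tests. As with Glud1, an adjusted p under 0.05 could hardly be reached in these tests, so it cannot decide whether the gap is real. With AP20187 the gap between the same probe sets moved by 0.09 (exact permutation p = 0.2). The mean of the 3 Otc probe sets changed by 0.35 with HFD (limma adjusted p = 0.144).

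RNA integrity controls of the array differed between the diets as well. The 3' minus 5' log2 value of Actb was -0.17 to 0.21 on LFD and -0.72 to -0.36 on HFD, and that of Gapdh 0.04 to 0.23 on LFD and -0.33 to -0.15 on HFD. Neither overlapped. Their part in the diet results was not tested.

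Glul 1426236_a_at was the other probe set that passed over both genotypes. Its LFD arrays read 1.02 and 0.75 (wildtype) and 0.54 and 0.66 (Alb::GC), and its HFD arrays 1.35 and 1.21 (wildtype) and 1.11 and 0.99 (Alb::GC). The highest LFD array lay just above the lowest HFD array. The rise was 0.64 ± 0.15 (limma adjusted p = 0.0282). It was lost without LFD wildtype replicate 2 (limma adjusted p = 0.0543), LFD Alb::GC replicate 1 (0.065), HFD wildtype replicate 1 (0.0993) or 2 (0.0736), or HFD Alb::GC replicate 1 (0.0883) or 2 (0.0651), and with genotype left out of the fit (0.051). Glul 1426235_a_at, at 0.24 ± 0.12 (limma adjusted p = 0.169), did not pass. The difference between the Glul probe sets moved by 0.40 with diet (exact permutation p = 0.0571, adjusted p = 0.137 over 8 tests).

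Asl and Nags, the members that rose with AP20187, did not pass with diet. For Asl the LFD arrays read 0.95 and 0.65 (wildtype) and 0.67 and 0.65 (Alb::GC), and the HFD arrays 0.79 and 0.84 (wildtype) and 1.09 and 1.05 (Alb::GC). The 2 HFD Alb::GC arrays were the highest of the 8, and the diet difference in that genotype was 0.66 ± 0.24 (limma adjusted p = 0.141). The Nags arrays on LFD read 1.32 and 0.95 (wildtype) and 0.68 and 0.93 (Alb::GC), and those on HFD 1.02 and 1.25 (wildtype) and 1.28 and 1.27 (Alb::GC). The diet difference of Nags was 0.01 ± 0.23 among wildtype arrays and 0.65 ± 0.23 among Alb::GC arrays (limma adjusted p = 0.978 and 0.129).

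Cps1, Arg1 and Glud1 had diet differences of -0.03 to 0.12 over both genotypes, none past the test. The Cps1 arrays on LFD read 1.15 and 0.81 (wildtype) and 1 and 0.95 (Alb::GC), and those on HFD 0.85 and 0.92 (wildtype) and 1.01 and 1.03 (Alb::GC). The 2 LFD wildtype arrays spanned all the others. Its 95% interval was -0.37 to 0.31, that of Arg1 -0.17 to 0.34, and those of the Glud1 probe sets -0.23 to 0.24 and -0.14 to 0.39. The probe set of Ass1 and Gm5424 differed by 0.06 ± 0.11 (limma adjusted p = 0.706).

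Genotype alone moved none past the threshold. On LFD, 0 of 11 passed in limma where 0% of all probe sets did; 1 of the 11, Glul 1426235_a_at, and 2337 of all had an unadjusted p under 0.05. The wildtype arrays read 1.05 and 0.98 and the Alb::GC arrays 0.69 and 0.82, without overlap, a difference of -0.41 ± 0.17 (limma adjusted p = 0.476). On LFD 5 of the 11 had arrays that did not overlap, against 38.7% of all probe sets, and the median of the 11 was -0.24. On HFD 0 of 11 passed in limma, against 0.133% of all probe sets; 0 of the 11 and 2525 of all had an unadjusted p under 0.05. Here 8 of 11 did not overlap, against 46.5%, and the median was 0.17. Over both diets 0 of 11 passed in limma, and 0% of all; 1 of the 11 and 2596 of all had an unadjusted p under 0.05. The 1 was Glul 1426236_a_at, at -0.39 ± 0.15 (limma adjusted p = 0.413).

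Whether the diet effect differed between genotypes was tested by limma's interaction term. It passed in 0 of the 11 and in 0% of all probe sets; 0 of the 11 and 2517 of all had an unadjusted p under 0.05. The largest values were Otc 1436615_a_at at 0.70 ± 0.30, Nags at 0.64 ± 0.32, Asl at 0.61 ± 0.34, Otc 1425540_at at 0.56 ± 0.57 and Otc 1420525_a_at at 0.53 ± 0.23. Their limma adjusted p ranged from 0.467 to 0.749. The 95% interval of Otc 1436615_a_at ran from -0.03 to 1.43.

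The surrounding lists were counted with HFD over both genotypes, where 13.5% of all probe sets rose and 14% fell. The aspartate and fumarate list rose in 2 of 16 and fell in 2. Carriers rose in 5 of 24 probe sets and fell in 1, with a median of -0.09, and enzymes of arginine, ornithine, proline and polyamines rose in 7 of 25 and fell in 3. The glutamine and glutamate list rose in 10 of 27 and fell in 1, and the nitrogen release list, which fell with AP20187, rose in 14 of 51 and fell in 2. Regulators rose in 16 of 39 and fell in 5, pericentral genes rose in 9 of 30 and fell in 1, and periportal genes rose in 8 of 24 and fell in 6. The aspartate and fumarate list gave 3 and 1 with quantile normalization and 4 and 1 with centring on medians. Of all probe sets, 2907 rose and 2517 fell with quantile normalization, and 3361 and 2857 with centring, from 3061 and 3172.

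Cell type markers were counted with diet too, where 13.5% of all probe sets rose and 14% fell over both genotypes. Over both genotypes hepatocyte markers fell in 6 of 16 probe sets and rose in 3, with sums of 14 to 16.6 on LFD and 15.9 to 17.1 on HFD. Cholangiocyte markers fell in 2 of 5 and rose in 1. Exocrine pancreas markers fell in 2 of 7, with sums of 7.33 to 11.9 on LFD and 4.14 to 5.37 on HFD. Kidney tubule markers fell in 2 of 8, lymphocyte markers rose in 1 of 6, and of 3 adipocyte probe sets 0 passed. Macrophage markers rose in 2 of 11, endothelial markers rose in 3 of 11, and stellate cell and fibroblast markers rose in 1 of 15 and fell in 3. Neutrophil markers rose in 1 of 5 and fell in 1, and their sums were 3.85 to 5.27 in LFD wildtype, 5.38 to 5.72 in LFD Alb::GC, 11.4 to 13.2 in HFD wildtype and 2.85 to 3.95 in HFD Alb::GC arrays. Their part in the diet results was not tested.

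Leaving out single arrays cut the calls of these lists, given here as rises and falls. Carriers gave 3 and 1 without LFD Alb::GC replicate 2, HFD wildtype replicate 1 or 2, or HFD Alb::GC replicate 1. For arginine, ornithine, proline and polyamines they were 3 and 1 without HFD wildtype replicate 1 or 2, 3 and 3 without HFD Alb::GC replicate 1, and 4 and 1 without HFD Alb::GC replicate 2. For nitrogen release they were 9 and 1 without HFD wildtype replicate 1 or 2 or HFD Alb::GC replicate 2. Regulators gave 10 and 2 without HFD wildtype replicate 1, 11 and 2 without replicate 2, and 12 and 1 or 10 and 2 without HFD Alb::GC replicate 1 or 2. Pericentral genes gave 6 and 0 without HFD wildtype replicate 2 or HFD Alb::GC replicate 1. Periportal genes gave 3 and 3 without HFD wildtype replicate 1 or 2, 4 and 3 or 5 and 3 without HFD Alb::GC replicate 1 or 2, and 6 and 3 without LFD Alb::GC replicate 2. The aspartate and fumarate list gave 2 and 0 without HFD wildtype replicate 1 or 2, HFD Alb::GC replicate 1, LFD wildtype replicate 2 or LFD Alb::GC replicate 1. Of all probe sets, 3287 to 4023 passed without 1 of the HFD arrays or the LFD Alb::GC arrays, from 6233.

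Single genes of these lists moved by more than 0.73, the value of Otc 1436615_a_at. Slc25a29 rose by 2.24 ± 0.24 in its leading probe set with HFD over both genotypes, with others from -0.67 to 1.36, and Aqp8 changed by -1 ± 0.12. The Aqp8 ratio was 1.61 ± 0.171 on LFD and 0.828 ± 0.337 on HFD (SD, n = 4 each). Slc7a2 rose by 2.50 ± 0.16, with its other probe sets at 2.32 and 2.33, and Slc1a5, a glutamine carrier, by 1.61 ± 0.28. Got1 rose by 1.63 ± 0.23, and Mdh2, mitochondrial malate dehydrogenase, by 1.02 ± 0.15, though its other probe set read 0.19.

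Regulators and zonal genes held further large rises with HFD. Ppargc1a, a coactivator of fasting genes, rose from 0.528 ± 0.278 to 2.6 ± 0.475 (SD, n = 4 each), a change of 2.33 ± 0.18, and Ppara, a fatty acid receptor, by 2.08 ± 0.40; the other 4 Ppargc1a probe sets ran from 0.90 to 1.42. Cyp7a1, the rate-limiting enzyme of bile acid synthesis, rose by 1.91 ± 0.29 and 1.23 in its 2 probe sets. Slc13a3, a dicarboxylate carrier, rose by 1.05 ± 0.18 in 1 probe set with others from -1.15 to 0.91, while Hsd17b13 changed by -1.21 ± 0.20. Dbt, a subunit of the branched-chain ketoacid dehydrogenase, rose by 1.24 ± 0.20, and Mmut, methylmalonyl-CoA mutase, by 1.16 ± 0.13, although its other probe sets ran from -0.54 to 0.83. Odc1 rose by 0.91 ± 0.13 in 1 probe set, with the others at -0.89 and -0.07. Prodh, proline dehydrogenase, rose by 1.05 ± 0.21, a call lost without HFD wildtype replicate 1 or 2 or HFD Alb::GC replicate 1 or 2 (limma adjusted p = 0.0512, 0.0614, 0.0556 and 0.0593).

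The genes most like the members were sought over the 16 arrays, each probe set centred within its experiment; these correlations are a description. The mean of Cps1, Otc, Asl and Arg1 was most like Impa1, Klkb1 and Xylt2 (Pearson r = 0.936, 0.935 and 0.933). Glud1 was most like Nipsnap1, P4hb and Prdx3 (r = 0.979, 0.978 and 0.978). For Glul the nearest were Aldh6a1, Cat and Chac2 (r = 0.924, 0.906 and 0.903). The points share their arrays. Over the 8 arrays of the diet experiment alone, r was 0.928 for Impa1, 0.855 for Nipsnap1 and 0.938 for Aldh6a1.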

How the data were processed

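Liver total RNA was labelled with biotin and read on Affymetrix arrays, per the labels' protocols. The values deposited by the authors are a ratio per probe set and array, given to 2 decimals with a smallest value of 0.01; this unit was read from the values. What a ratio was taken against is not given in the sources used here, nor is the scanner software or the summary method. The number of arrays limits the precision.

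The 64 control probe sets were left out, 0.05 was added before log2, and each experiment was fitted on its own with limma 3.58.1 in R 4.3.3 (lmFit, eBayes with a variance trend), adjusted by Benjamini-Hochberg over 22626 probe sets at 0.05, two-sided. Fold changes on this scale understate changes of low ratios. Version 1.17.8 of the data.table package read the files, matplotlib 3.10.9 (Python 3.11.15) made the figures, and the fit was tested on simulated data. For AP20187 it recovered 32% of simulated log2 changes of 1 and 63% of changes of 2. For HFD over both genotypes it recovered 20% and 58%. The simulated data held far fewer changed probe sets than passed here, and the adjustment is stricter when few change. These shares therefore do not measure how many real changes were missed. Symbols came from GEO's platform annotation, which can be old: 20380 probe sets have 1 symbol, 691 several and 1555 none. Replicates held 1.44% to 2.46% equal values, so none was a duplicate.

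The members and lists were chosen with earlier results of these data known. Every member probe set was named. Of each list, up to 4 genes with AP20187 and up to 2 with HFD over both genotypes were named, by largest change among probe sets past the threshold without overlap between groups. Slc7a8, Slc38a4, Gcgr, Nfyb and Hnf4a were named after their values were seen. Motifs were chosen after the promoter sequences could be read. The tests between probe sets of a gene were added after seeing the data. The urea cycle profile leaves out the probe set shared by Ass1 and Gm5424. Alternatives were other offsets (0.01 and 0.2), scalings, filters and left-out arrays.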

Additional observations from a re-analysis of the deposited data

Results flagged for a closer look

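In 3 cases 1 of 4 arrays lay apart from the rest, its gap to the nearest array, as a share of the group's whole range, exceeding Dixon's 95% critical value for 4 arrays; chance gives about 1 in 20 groups. Otc 1436615_a_at in AP20187 replicate 1 was at 1.30 with the others at 0.98 to 1.01 (0.894 of the range). Nags in AP20187 replicate 2 was at 1.27 with the others at 1.40 to 1.41 (0.932). Glul 1426235_a_at in untreated replicate 4 was at 1.19 with the others at 1.03 to 1.05 (0.867).

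The genotype difference changed direction with diet in 3 probe sets whose arrays did not overlap on either diet: Alb::GC arrays were lower on LFD and higher on HFD. Among all probe sets, 38.7% did not overlap between the genotypes on LFD and 46.5% on HFD. The share of all probe sets that also changed direction was not counted. For Otc 1420525_a_at the differences were -0.36 and 0.18, for Otc 1436615_a_at -0.47 and 0.23, and for Nags -0.47 and 0.17, on the log2 scale. The interaction, tested in limma, was 0.53, 0.70 and 0.64, with adjusted p of 0.467, 0.468 and 0.523, so none passed.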

How the results depend on the processing

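No value past the threshold turned its direction. Calls lost by single probe sets stand beside them in the text, and 58 values past the threshold in neither fit changed sign. With AP20187, 7 of 11 member probe sets passed under quantile normalization and 7 with median centring, and 6 to 8 without 1 array. Of all probe sets, 6922, 7574 and 6162 to 7548 passed in the same settings, from 7724. In Alb::GC mice, HFD gave 0 member probe sets under quantile normalization, 0 without the variance trend and 0 to 0 without 1 array, from 1; with probe sets averaged per gene it gave 0 genes. Over both genotypes HFD gave 0 to 2 without 1 array, from 2, 1 with genotype left out of the fit, and 1 gene with averaged probe sets. Of all probe sets, HFD in wildtype gave 47 to 1593 without 1 array, from 3303, HFD in Alb::GC 18 to 348, from 1531, and HFD over both 3287 to 5035, from 6233. Genotype on HFD gave 0 under quantile normalization, 15 without the variance trend and 0 to 0 without 1 array, from 30, and the interaction 5 without the trend, from 0. Fewer arrays leave fewer degrees of freedom; the other causes were not tested. No paired analysis was possible because the groups share no replicate numbers in the labels, whose titles number all 16 arrays in a single run.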
